A study of Mus musculus with 6 samples.

Results

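*Ehmt2* and 7 further genes of the machinery that methylates lysine 9 of histone H3 (H3K9) were followed in mouse embryonic stem cells after depletion of the splicing factor SON. The genes are *Ehmt2*, *Ehmt1*, *Wiz*, *Setdb1*, *Atf7ip*, *Trim28*, *Suv39h1* and *Suv39h2*, 8 of the 12134 genes with an intron in the deposited tables. They were matched by gene identifier and brought 89 of 85015 introns and 83 of 116873 annotated transcripts. They were chosen by gene symbol with the splicing efficiencies and spliced reads of these same control and *Son* knockdown libraries already known, so every control against knockdown value below is a description of the 8 genes and gives no independent support.

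The cells were E14 embryonic stem cells on a 129/Ola background, a feeder-independent line in wide use, grown with serum and LIF. Transfection by lipofection delivered either a *Son* siRNA or a control siRNA, and RNA was taken 24 hours later. There were 2 control and 2 knockdown libraries of total RNA depleted of ribosomal RNA, and 1 Nanopore cDNA library of polyadenylated RNA from each condition. The labels do not say that the replicates were separate cultures, so p-values measure only the spread between these samples, which may be technical.

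H3K9 methylation marks silenced chromatin. EHMT2 (G9a) and EHMT1 (GLP) work as a heterodimer that adds 1 or 2 methyl groups in euchromatin, and the zinc finger protein WIZ binds and stabilises them on chromatin. SETDB1 adds the third methyl group at retrotransposons in embryonic stem cells, where TRIM28 (KAP1) brings it through KRAB zinc finger proteins and ATF7IP stabilises it. SUV39H1 and SUV39H2 carry out trimethylation in pericentromeric heterochromatin. SON is a nuclear speckle protein needed for splicing of introns with weak splice sites.

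The libraries held 10556187 to 16012286 split reads at 5′ junctions in total RNA, and 3080426 (control) and 1874851 (knockdown) long reads. *Son* itself had 273 and 306 spliced CPM (split reads at 5′ junctions per 1000000 of the library) in the controls against 92.1 and 101 in the knockdown samples, which do not overlap. Its long reads numbered 217 in the control and 37 in the knockdown library. Of 10 embryonic stem cell markers, 9 had introns listed in all 4 total RNA libraries, with summed levels of 4710 to 4930 spliced CPM. *Sox2* is a gene without introns, and no marker of the list was at 0 in the long reads. Fibroblast markers had 1 of 7 genes listed, at 1.14 to 2.14 CPM, and *Col1a1*, *Col1a2* and *Col3a1* were not listed. The 4 lists for early lineages summed to at most 4.64 CPM each in total RNA.

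For each intron the tables give reads that cross an exon-intron boundary unsplit and reads split over the intron. Splicing efficiency is the split share of all these reads over both junctions, from 0 to 1. A read split over an intron is counted at its 5′ and again at its 3′ junction. Sums of split reads over both junctions are therefore larger than the number of reads. A lower efficiency can come from more unsplit or from fewer split reads. The test compared unsplit with split reads in edgeR, as a log2 odds ratio that is above 0 when the knockdown had more unsplit reads per split read. Its median over all 63309 introns tested was 0.12, and -0.01 when split and unsplit reads were scaled separately, so values below are best read against that shift. An intron or gene is called where its adjusted p was under 0.05.

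*Ehmt2* lies on chromosome 17. Its introns are numbered here by the coding transcript Ehmt2-204, which has 27, 10 of them of 100 nt or less. The tables list 14 of these 27 and 2 introns with alternative splice sites. Of the other 13, 11 are overlapped by an exon of another transcript model in GENCODE M21, and no listed intron is, so the introns that *Ehmt2* is annotated to retain are outside these measurements. The exon junctions of the 8 called introns are shown because split reads over these letters are what was counted. Each has 30 bases on either side in the coding part of Ehmt2-204, from the GENCODE M21 transcript sequences, with the last 3 bases of the upstream exon and the first base of the downstream exon in capitals.
Ehmt2 intron 2 junction: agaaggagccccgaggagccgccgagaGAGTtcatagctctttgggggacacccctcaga
Ehmt2 intron 7 junction: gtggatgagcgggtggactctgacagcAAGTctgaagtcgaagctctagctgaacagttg
Ehmt2 intron 11 junction: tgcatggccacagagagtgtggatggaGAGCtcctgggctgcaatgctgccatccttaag
Ehmt2 intron 16 junction: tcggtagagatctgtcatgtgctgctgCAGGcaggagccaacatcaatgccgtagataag
Ehmt2 intron 17 junction: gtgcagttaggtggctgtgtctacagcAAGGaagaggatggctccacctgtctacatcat
Ehmt2 intron 21 junction: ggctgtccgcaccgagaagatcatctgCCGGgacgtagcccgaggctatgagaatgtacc
Ehmt2 intron 25 junction: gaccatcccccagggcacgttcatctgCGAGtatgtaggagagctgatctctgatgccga
Ehmt2 intron 26 junction: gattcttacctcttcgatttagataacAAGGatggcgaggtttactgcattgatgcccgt

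The splicing efficiency of *Ehmt2* introns was lower after *Son* knockdown. Whether less splicing or faster loss of spliced RNA lay behind this was not tested. Both knockdown libraries lay below both controls in 13 of the 14 tested *Ehmt2* introns, and 8 of the 14 were called, all lower. Over all introns tested, 1.71% were called lower and 24.3% had both knockdown libraries below both controls. Of the 503 genes with at least 1 intron called lower, 12 had at least 8, and the highest number in a gene was 24. The calls were spread from the second to the penultimate intron of the gene.

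Intron 7 (chr17:35122455-35124104, 1650 nt) had the lowest efficiency and the largest difference. Its efficiency was 0.83 and 0.698 in the controls against 0.487 and 0.275 in the knockdown samples. The mean thus went from 0.764 ± 0.093 to 0.381 ± 0.15 (SD, n = 2 each; log2 odds ratio 2.41 ± 0.619 SE, edgeR adjusted p = 0.0149). Its unsplit reads sat almost wholly at the 5′ end: 19 and 27 in the controls against 59 and 47 in the knockdown samples, beside at most 5 at the 3′ end in any library. With the 3′ junction alone the log2 odds ratio was 0.25 (edgeR adjusted p = 0.992), and the unsplit reads there are too few to show a difference.

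The intron with the smallest adjusted p was intron 16 (chr17:35126414-35126497), only 84 nt long. Its efficiency fell from 0.985 and 0.975 to 0.931 and 0.895 (log2 odds ratio 2.25 ± 0.451 SE, edgeR adjusted p = 0.000529). Here the unsplit reads lay at both ends, with 16 and 23 at the 5′ and 18 and 18 at the 3′ junction in the knockdown samples. The next intron, 17 (chr17:35126621-35126718, 98 nt), went from 0.977 and 0.965 to 0.924 and 0.884 (edgeR adjusted p = 0.00378). In both neighbours every knockdown value was below every control value.

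Intron 11 (chr17:35125035-35125126, 92 nt) was the mirror image of intron 7 in where its unsplit reads lay. It had 29, 22, 32 and 35 of them at the 3′ junction in control 1, control 2, knockdown 1 and knockdown 2, and 2, 3, 9 and 7 at the 5′ junction. Its efficiency was 0.969 and 0.958 in the controls against 0.9 and 0.845 in the knockdown samples (edgeR adjusted p = 0.00385). Split reads at the 3′ junction numbered 485 and 299 in the controls against 188 and 120 after knockdown. These counts are not scaled to library size.

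Toward the 3′ end of the gene, which codes for the catalytic SET domain, introns 21, 25 and 26 were called. Intron 21 (chr17:35127782-35129666, 1885 nt) had efficiencies of 0.969 and 0.955 in the controls against 0.92 and 0.849 in the knockdown samples. Intron 25 (chr17:35130642-35131364, 723 nt) had 0.973 and 0.945 against 0.917 and 0.878. Intron 26 (chr17:35131444-35131609, 166 nt) had 0.975 and 0.961 against 0.911 and 0.904. The edgeR adjusted p-values of these 3 introns were 0.0239, 0.0346 and 0.00751, and in none did the groups overlap.

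Intron 2 (chr17:35118230-35118335, 106 nt) was called on few reads. Its efficiency was 0.992 and 0.964 in the controls against 0.922 and 0.8 in the knockdown samples (log2 odds ratio 2.69 ± 0.779 SE, edgeR adjusted p = 0.0432). This rests on 2, 7, 8 and 9 unsplit reads over both junctions, while split reads at the 5′ junction went from 117 and 94 to 47 and 18.

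**Figure D1:**
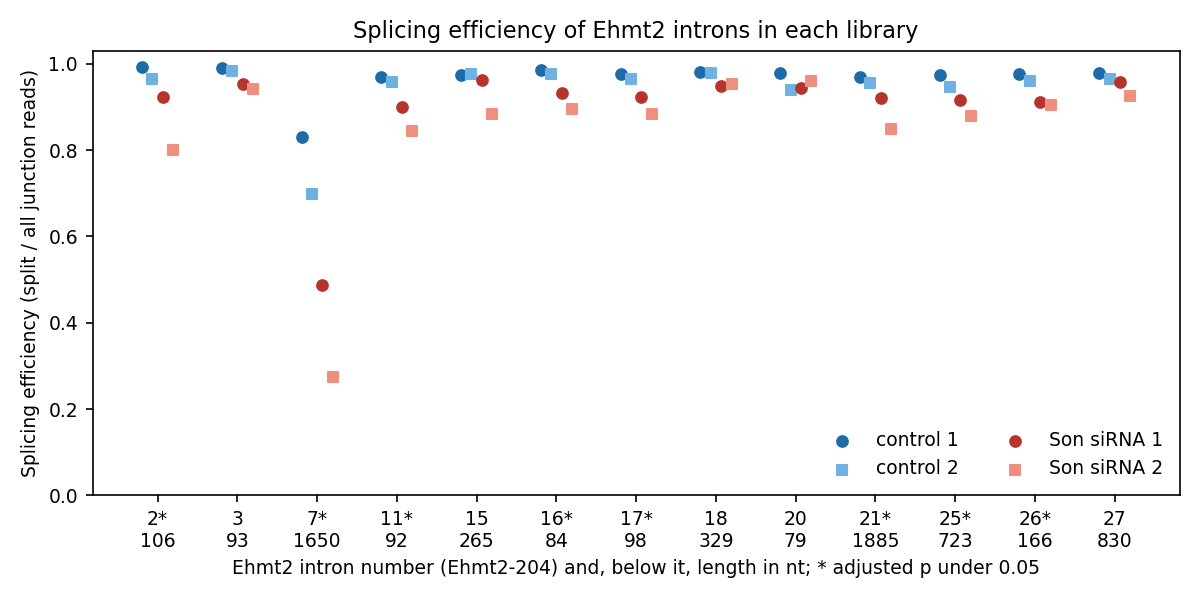
Splicing efficiency (split reads over all junction reads, 0 to 1) of the 13 *Ehmt2* introns of Ehmt2-204 listed in all 4 total RNA libraries, ordered from 5′ to 3′, with 1 point per library. Intron 7 stands lowest in every library, and in 12 of the 13 introns both knockdown points lie below both control points, intron 20 being the exception.

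The other 6 tested *Ehmt2* introns were not called. Intron 20, of 79 nt, was the only one with overlapping groups, at 0.979 and 0.939 in the controls against 0.944 and 0.96 in the knockdown samples. Introns 15, 18 and 3 had edgeR adjusted p-values of 0.0824, 0.15 and 0.196, with knockdown values below control values throughout. A 75 nt intron with an alternative 3′ splice site had 0.865 and 0.911 against 0.763 and 0.727 (edgeR adjusted p = 0.26). The sixth, intron 27, had the smallest log2 odds ratio after intron 20, at 1.01 ± 0.645 SE.

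The calls of single introns depended on which libraries and junctions were used. Without control 1 none of the 8 was called, with edgeR adjusted p-values of 0.233 to 0.822 (12 member introns had an unadjusted p under 0.05), and without knockdown 2 only introns 16 and 26 were. The 5′ junctions alone called 0, with 13 at an unadjusted p under 0.05, and the 3′ junctions alone 1. The log2 odds ratio of the 8 was above 0 in each of these settings that could be fitted. In the main test a split read is counted at both junctions. A junction taken alone avoids this but also leaves out the unsplit reads of the other end.

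**Figure D2:**
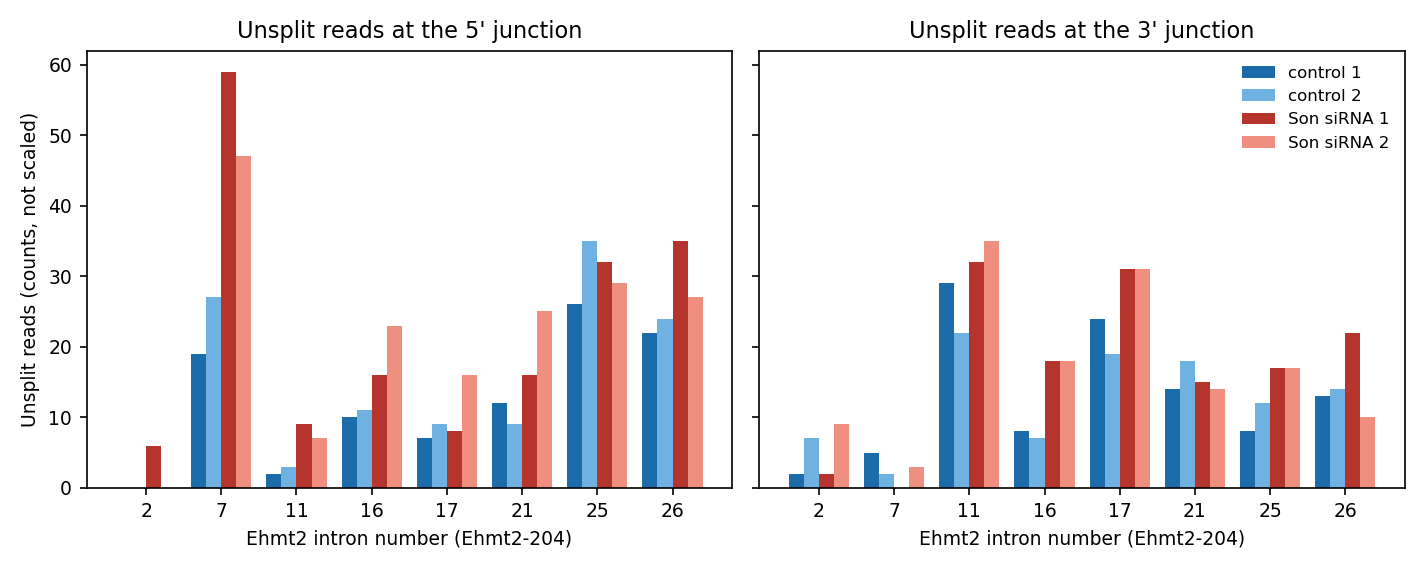
Unsplit reads (counts, not scaled to library size) at the 5′ and the 3′ junction of the 8 called *Ehmt2* introns, 1 bar per library. Intron 7 carries its unsplit reads at the 5′ junction, up to 59, and intron 11 at the 3′ junction, up to 35.

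Summed over the gene, *Ehmt2* had less spliced RNA in the knockdown samples and no less unspliced RNA. Spliced reads at 5′ junctions were 355 and 341 CPM in the controls against 158 and 147 in the knockdown samples, 0.44 of the control mean. The knockdown samples lay far below the controls (log2 fold change -1.21 ± 0.0783 SE, edgeR adjusted p = 5.4e-09), and the gene ranked 68th from the lowest of 9474 genes. Unsplit reads at the same junctions were 9.43 and 15.5 CPM in the controls against 16.4 and 19.9 in the knockdown samples, 1.45 times the control mean, with no overlap but a gap smaller than the spread of the controls. Efficiency of the whole gene went from 0.973 and 0.958 to 0.916 and 0.883 (log2 odds ratio 1.66 ± 0.233 SE, edgeR adjusted p = 4.05e-10). Without any 1 library the gene stayed called, with its adjusted p at most 0.0071 (without control 1). In bulk RNA, fewer cells with the transcript and less of it per cell cannot be told apart.

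*Ehmt1*, which codes for the partner of EHMT2, was called in neither gene test. Its spliced reads were 211 and 209 CPM in the controls against 221 and 221 in the knockdown samples (log2 fold change 0.05, edgeR adjusted p = 0.776). Efficiency of the gene was 0.947 and 0.938 against 0.949 and 0.948, and none of its 20 tested introns was called. Its intron 23 (906 nt) showed the largest fall among well covered introns, from 0.971 and 0.929 to 0.86 and 0.908. An intron of 2294 nt from another model went the other way, from 0.9 and 0.881 to 0.943 and 0.956 (edgeR adjusted p = 0.286).

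*Wiz* was the second member with fewer spliced reads. It had 46.4 and 49.6 spliced CPM in the controls and 28.9 in both knockdown samples, 0.602 of the control mean (log2 fold change -0.75 ± 0.122 SE, edgeR adjusted p = 0.000243). Its efficiency was 0.913 and 0.88 in the controls against 0.841 and 0.818 in the knockdown samples (log2 odds ratio 0.84 ± 0.287 SE, edgeR adjusted p = 0.0469). That second call is marginal: the adjusted p was 0.883 without control 1, 0.109 without control 2, 0.247 without knockdown 2 and 0.151 with DESeq2. Unsplit CPM at 5′ junctions overlapped, at 4.93 and 7.05 against 5.94 and 6.25.

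Among the introns of Wiz-207 listed in all 4 libraries, introns 3 and 4 had the largest differences. Intron 3 (chr17:32579402-32580434, 1033 nt) had 0.871 and 0.755 in the controls against 0.662 and 0.312 in the knockdown samples. Intron 4 (chr17:32578469-32579011, 543 nt) had 0.657 and 0.613 against 0.537 and 0.167. Neither was called (edgeR adjusted p = 0.072 and 0.341), and both were low above all in knockdown 2. That library held only 48 and 42 junction reads in introns 3 and 4, of which 33 and 35 were unsplit. A fit without knockdown 1 has these few reads as its whole knockdown group. Without knockdown 2 the log2 odds ratio of intron 3 was 1.2 in place of 2.17 (edgeR adjusted p = 0.68), and that of intron 4 was 0.6 in place of 1.57 (edgeR adjusted p = 0.906). Among introns with at least 50 junction reads in every library, intron 6 (148 nt) had the largest fall, from 0.795 and 0.758 to 0.568 and 0.661. Intron 5 (958 nt) was listed in the 2 controls only, at 0.312 and 0.571. *Wiz* shares 9141 bases with the lincRNA gene *Gm26858* on the other strand, and whether reads were counted by strand is not given in the sources used here, so its unsplit reads are uncertain. *Setdb1*, *Atf7ip*, *Trim28*, *Suv39h1* and *Suv39h2* also overlap annotated genes on the other strand, *Ehmt1* overlaps 2 on its own strand, and *Ehmt2* overlaps none.

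Of the SETDB1 arm, *Setdb1*, *Atf7ip* and *Trim28*, no gene was called. *Setdb1* had 269 and 258 spliced CPM in the controls against 239 and 256 in the knockdown samples (log2 fold change -0.11, edgeR adjusted p = 0.46). Its efficiency was 0.929 and 0.924 against 0.909 and 0.901, with no overlap and no call (log2 odds ratio 0.41 ± 0.225 SE, edgeR adjusted p = 0.448). Intron 21 of *Setdb1* (chr3:95231502-95231615, 114 nt) had the largest fall of its 16 tested introns, from 0.913 and 0.936 to 0.841 and 0.805 (edgeR adjusted p = 0.153). Both knockdown libraries lay below both controls in 7 of the 16 *Setdb1* introns, beside 24.3% of all introns tested.

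*Atf7ip* was the member with the highest fold of spliced reads, at 244 and 247 CPM in the controls against 272 and 297 in the knockdown samples. The groups do not overlap, and the gene was not called (log2 fold change 0.19 ± 0.0769 SE, edgeR adjusted p = 0.155). Without knockdown 1 the log2 fold change was 0.25 and was called. Its unsplit CPM at 5′ junctions were 8.68 and 9.02 against 12 and 12.1, with no overlap. Over both junctions its efficiency was 0.96 ± 0.003 against 0.959 ± 0.0024 (SD, n = 2 each), and the log2 odds ratio was 0.23 at the 5′ and -0.13 at the 3′ junctions, called at neither. Its most lowered intron, 13 (1914 nt), went from 0.956 and 0.972 to 0.932 and 0.943.

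*Trim28*, the most abundant of the 8, has short introns like *Ehmt2*. Its spliced reads were 1290 and 1350 CPM in the controls against 1370 and 1120 in the knockdown samples, which overlap. Knockdown 2 set the direction: without knockdown 1 the log2 fold change was -0.26 and was called, and without knockdown 2 it was 0.03. Efficiency of the gene was 0.976 and 0.975 against 0.976 and 0.97, with 11805 to 20594 split reads at 5′ junctions per library. Its intron with the largest fall, intron 1 (242 nt), had 0.967 and 0.965 against 0.966 and 0.946.

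*Suv39h1* and *Suv39h2* were the least abundant members and showed no difference that could be detected at this depth. *Suv39h1* had 10.1 and 12 spliced CPM in the controls against 10.4 and 12.1 in the knockdown samples. *Suv39h2* had 19 and 20.8 against 19.2 and 20.3. The low efficiency of *Suv39h1*, at 0.705 and 0.675 in the controls against 0.705 and 0.671 in the knockdown samples, was a feature of both groups. It rests on 3 introns and 146 to 168 unsplit reads per library, and the gene overlaps the antisense gene *Gm14820*. Intron 2 of *Suv39h1* went from 0.64 and 0.748 to 0.528 and 0.658, which overlap, and intron 4 of *Suv39h2* from 0.9 and 0.907 to 0.887 and 0.824.

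**Figure D3:**
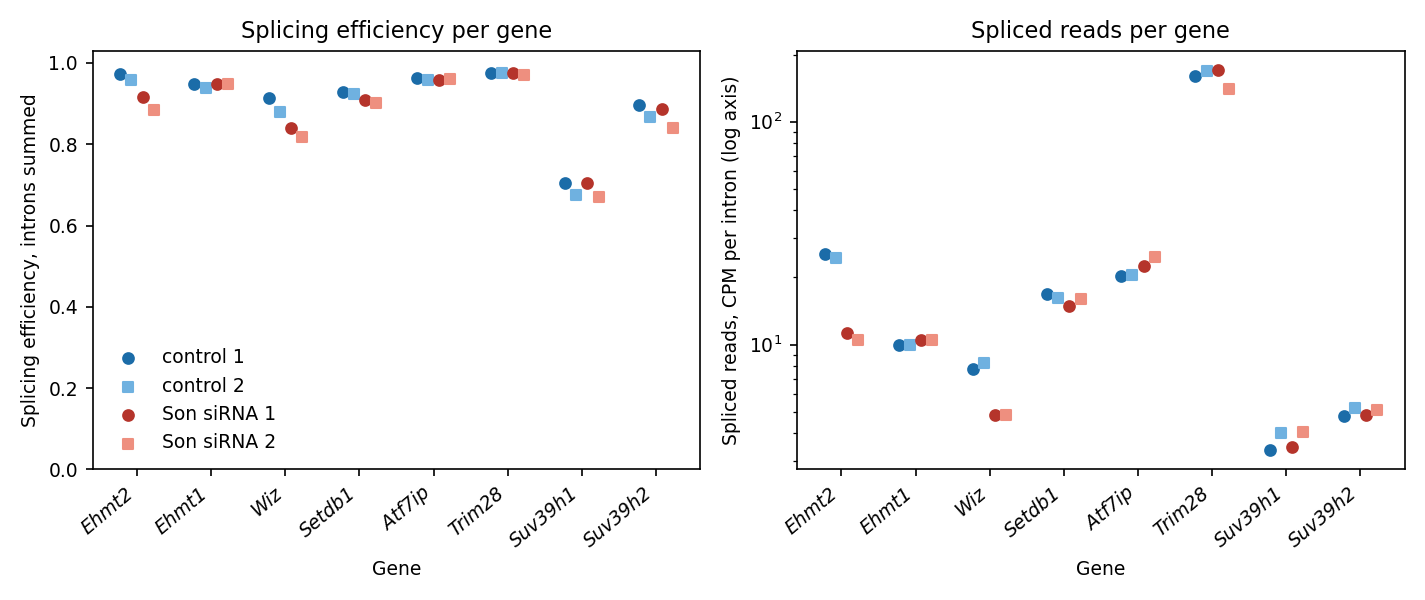
Splicing efficiency per gene (left, 0 to 1) and spliced CPM divided by the number of introns summed (right, log axis) for the 8 genes, 1 point per total RNA library. *Ehmt2* and *Wiz* have both knockdown points below both control points in both panels.

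In all, *Ehmt2* and *Wiz* were called in both gene tests and the other 6 in neither. Both tests use the split reads at 5′ junctions, so their calls are not independent of each other. Over all genes tested, 6.98% were called lower in efficiency, 6.76% had fewer spliced reads and 1.96% had more. No member was called higher in efficiency or spliced reads by edgeR or DESeq2; at an unadjusted p under 0.05, 0 were higher in efficiency and 1, *Atf7ip*, had more spliced reads. The median log2 fold change of spliced reads was -0.07 over the members and 0.01 over all genes. Of the 69 tested introns outside *Ehmt2*, edgeR and DESeq2 called 0, and 5 had an unadjusted p under 0.05. In 20 of the 69 both knockdown libraries lay below both controls, beside 24.3% of all introns tested. The median change in efficiency of the 69 was -0.00231, beside -0.00418 over all introns tested. That *Ehmt2* differs from the other members was not tested.

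Levels of the genes were set side by side as spliced CPM divided by the number of introns summed. The order in the controls was *Trim28* (165 ± 5.9), *Ehmt2* (24.9 ± 0.71), *Atf7ip* (20.4 ± 0.18), *Setdb1* (16.5 ± 0.47), *Ehmt1* (10 ± 0.041), *Wiz* (8 ± 0.38), *Suv39h2* (4.98 ± 0.3) and *Suv39h1* (3.68 ± 0.47; SD, n = 2 each). No neighbours in that order overlapped between libraries. In the knockdown samples *Ehmt2* stood at 10.9 ± 0.52, within its spread of *Ehmt1* at 10.5 ± 0.0031, so by this measure the partner genes that differed in the controls no longer did beyond the spread. The measure depends on which introns are listed. In long reads *Ehmt2* and *Ehmt1* had 43.5 and 22.1 CPM in the control library. In the knockdown library they had 23.5 (exact 95% interval 17.1 to 31.5) and 14.9 (9.92 to 21.6), which overlap. *Wiz* (4.82 ± 0.0018) and *Suv39h2* (4.94 ± 0.18) likewise could not be separated.

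Both *Ehmt2* and *Trim28* have short introns, and the part of length in the result was not tested. The median length of the 14 *Ehmt2* introns was 136 nt, beside 1128 nt over all introns tested and 131 nt over those called lower. Introns of 100 nt or less made up 6.72% of all those tested, and 8.28% of them were called lower, with a median log2 odds ratio of 0.48. Among the 8 genes 10 tested introns were that short, 6 in *Ehmt2* and 4 in *Trim28*. The 4 of *Trim28* (80, 100, 82 and 96 nt) had log2 odds ratios of -0.01, -0.09, -0.16 and -0.14, on at least 1347 junction reads in every library. The exon sequence up to 100 nt either side of an intron had a median GC content of 57.8% in *Ehmt2*, 58.5% in *Wiz* and 54.5% in *Trim28*, beside 50.5% over all introns tested and 56.5% over those called lower.

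**Figure D4:**
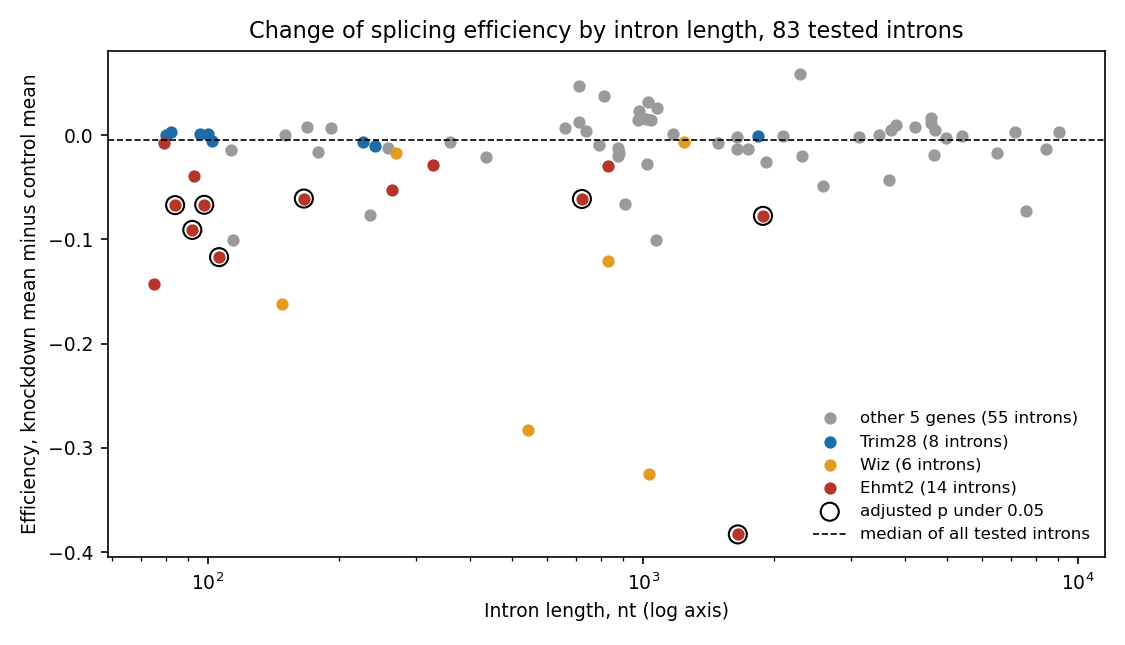
Change of splicing efficiency (knockdown mean minus control mean) against intron length (log axis) for the 83 tested introns of the 8 genes; circles mark the 8 called introns and the dashed line the median of all introns tested (-0.00418). *Trim28* introns of the same length as the short *Ehmt2* introns lie near the line.

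The long reads, from separate libraries, gave a second view of *Ehmt2*. With 1 library per group there is no replicate check and no test; intervals are exact binomial at 95% and cover counting error only. The labels name the same knockdown sample, knockdown 1, as the source of both. By that label the knockdown long reads do not come from a further sample. Which total RNA sample the control library goes with is unclear. *Ehmt2* had 134 reads in the control and 44 in the knockdown library, or 43.5 (36.4 to 51.5) and 23.5 (17.1 to 31.5) CPM. The intervals do not overlap, and the log2 ratio was -0.88 (-1.42 to -0.39). No member was at least 2-fold lower or higher as a gene, beside 4.16% of all genes with at least 20 reads that were at least 2-fold lower.

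Within *Ehmt2* the difference lay in reads counted on coding transcript models. Ehmt2-204 had 37 reads in the control and 7 in the knockdown library, Ehmt2-201 had 30 and 4, and Ehmt2-202 had 22 and 6. Their log2 ratios were -1.61, -2.04 and -1.08, and 5.8% of all transcripts with at least 20 reads were at least 2-fold lower. The retained-intron model Ehmt2-205 had 20 and 11 reads and the noncoding Ehmt2-212 had 14 and 10, with log2 ratios of -0.12 and 0.25. These models are short, at 1359 and 675 nt, where the coding models named are 3746 to 4026 nt long. Whether read length differed between the libraries was not tested. Protein-coding models thus held 73.1% (64.8 to 80.4) of *Ehmt2* reads in the control and 43.2% (28.3 to 59) in the knockdown library, and the log2 ratio of coding reads was -1.62 (-2.44 to -0.93). Retained-intron models held 16.4% (10.6 to 23.8) and 25% (13.2 to 40.3), which overlap, and a nonsense-mediated decay model, Ehmt2-208, had 0 and 4 reads.

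Ehmt2-205 keeps introns 23 (307 nt) and 24 (100 nt), 2 of those absent from the junction tables. Intron 24 is shown with the kept introns of the *Trim28* and *Suv39h1* models that had at least 10 reads, since these letters are part of the models. The counts per model do not show whether each read held them. The first 6 and last 3 bases, at the splice sites, are in capitals. All are from GENCODE M21 transcripts, on GRCm38, at chr17:34911479-34911578 for *Ehmt2*, chr7:13030376-13030454 for *Trim28* and chrX:8063826-8063910 for *Suv39h1*, the last on the minus strand.
Ehmt2-205 kept intron 24: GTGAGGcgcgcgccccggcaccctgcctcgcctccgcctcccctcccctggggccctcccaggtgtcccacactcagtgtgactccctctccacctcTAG
Trim28-203 kept intron 15: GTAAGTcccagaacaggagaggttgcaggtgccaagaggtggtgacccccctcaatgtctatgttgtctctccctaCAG
Suv39h1-205 kept intron 4: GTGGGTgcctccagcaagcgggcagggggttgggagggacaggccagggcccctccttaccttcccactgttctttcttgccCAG

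These 3 introns are 100, 79 and 85 nt long with GC contents of 73%, 54.4% and 65.9%, and all begin with GT and end with AG. Trim28-203 had 58 reads in the control and 40 in the knockdown library, and retained-intron models of *Trim28* held 14.3% (11.2 to 17.9) and 15.4% (11.4 to 20). Suv39h1-205 had 11 and 9 reads, and retained-intron models of that gene held 23.5% (14.1 to 35.4) and 31.6% (17.5 to 48.7). The main coding transcript of *Trim28*, Trim28-201, had 377 and 248 reads, a log2 ratio of 0.11.

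*Wiz* looked different in the 2 assays. It had the most long reads of the 8 genes, 563 and 313, with a log2 ratio of -0.13 (-0.33 to 0.07), though it was among the 3 least abundant by spliced reads per intron. Of these reads 515 and 283 lay on a single retained-intron model, Wiz-202, whose exons hold none of the numbered introns whole. Protein-coding models held 3.2% (1.91 to 5.01) and 4.47% (2.47 to 7.39), or 18 and 14 reads. The nonsense-mediated decay models Wiz-204 and Wiz-210 had 15 and 8, and 12 and 8 reads. The log2 ratio of coding reads was 0.36 (-0.77 to 1.44), so a difference of the size seen in total RNA was not detectable at this depth.

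The remaining members had 14 to 163 long reads in the control library. *Atf7ip* had 163 and 73, a log2 ratio of -0.44 (-0.86 to -0.04), opposite in sign to its spliced reads in total RNA. Its main transcript, Atf7ip-201, had 103 and 43, and the retained-intron models Atf7ip-208 and Atf7ip-202 had 11 and 6, and 10 and 4. *Ehmt1* had 68 and 28 reads, a log2 ratio of -0.55 (-1.25 to 0.09), led by Ehmt1-210 with 35 and 17. *Setdb1* had 84 and 65, a log2 ratio of 0.35 (-0.14 to 0.83), led by Setdb1-202 with 41 and 37. Its retained-intron models Setdb1-204, which keeps intron 13 (1080 nt), and Setdb1-205 had 7 and 6, and 6 and 4 reads. *Suv39h1* had 68 and 38 reads, led by Suv39h1-203, and *Suv39h2* 14 and 8, led by Suv39h2-201. Intervals of the shares on coding models overlapped between the libraries for all 7 genes other than *Ehmt2*.

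**Figure D5:**
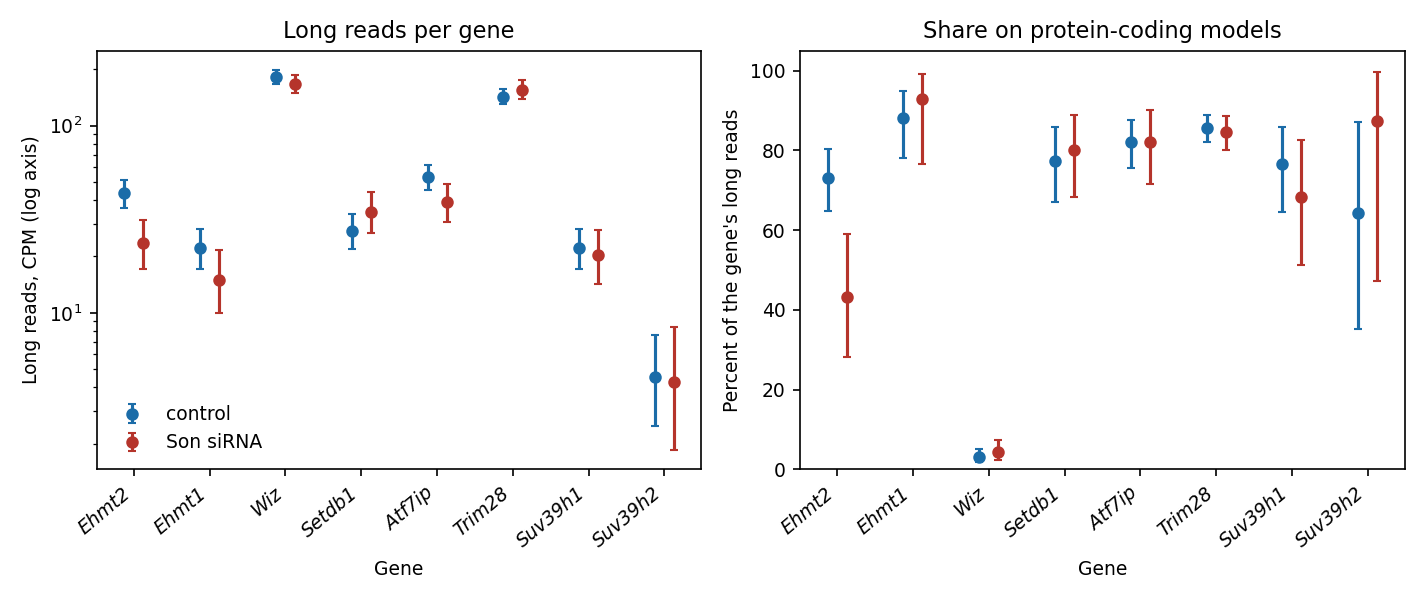
Long reads in CPM (left, log axis) and percent of each gene's long reads on protein-coding models (right) in the control and the knockdown library; bars are exact binomial 95% intervals for counting error. *Ehmt2* is the gene whose intervals are apart in both panels.

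Further genes that read, write or erase H3K9 methylation were taken from a list of 37, of which 33 had introns in all 4 libraries. In spliced reads 2 of 32 were called with fewer and 0 with more by edgeR, beside 6.76% and 1.96% of all genes tested, and DESeq2 called 2 and 0; 4 had more at an unadjusted p under 0.05. *Uhrf1*, which reads H3K9 methylation and recruits the maintenance DNA methyltransferase, fell by 0.66 on the log2 scale (edgeR adjusted p = 2.04e-06). *Daxx*, a histone H3 variant chaperone, fell by 0.41 (edgeR adjusted p = 0.0274). In efficiency 2 of 33 were called lower, beside 6.98% of all genes tested, and 0 higher by edgeR and by DESeq2, with 0 higher at an unadjusted p under 0.05. *Uhrf1* had a log2 odds ratio of 0.92 (edgeR adjusted p = 0.000705), with efficiency from 0.95 to 0.909. *Kdm4b*, an H3K9 demethylase, had 1.06 (edgeR adjusted p = 0.000812), from 0.917 to 0.841. Among the groups of that list, HP1 and other readers had 1 of 7 with fewer spliced reads, HUSH and silencing partners 1 of 12, and the other methyltransferases (3 tested) and the demethylases (10 tested) none.

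The genes whose efficiencies in the 4 libraries lay closest to those of *Ehmt2*, by Euclidean distance among 5509 genes with at least 500 junction reads in every library, were *Ipo4*, *Pfas*, *Mrpl58*, *Med12* and *Grk2*. *Ipo4*, a nuclear import receptor, was nearest at a distance of 0.0098, with 0.976 and 0.965 in the controls against 0.91 and 0.882 in the knockdown samples. Their log2 fold changes of spliced reads ran from -0.79 for *Ipo4* to -0.41 for *Pfas*, an enzyme of purine synthesis, so all 5 were smaller in size than the -1.21 of *Ehmt2*.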

How the data were processed

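The total RNA tables deposited by the authors, SPLICE-q output per the labels, give for each intron counts of reads split or unsplit at its 5′ and 3′ junctions, and a score that, checked on the files, is the split fraction of all these reads; every listed junction had at least 10 reads. For long reads, the authors deposited counts per transcript, per the labels. The submitters' processing notes name GRCm39, SAMtools and minimap2; roles, settings and strand are not given in the sources used here. Intron positions are those of the deposited tables; names, models and sequences are from GENCODE M21 (GRCm38), with introns matched by transcript, number and length.

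Introns listed in all 4 libraries with at least 10 split and 10 unsplit reads in sum were tested with edgeR 4.0.16 (quasi-likelihood, R 4.3.3) for the unsplit-by-knockdown term, per intron and summed per gene. Reads of both junctions were summed, so a split read entered at each junction as if these were separate reads. P-values of the main efficiency test may therefore be too small. The 681 introns listed under several genes were left out of gene sums. Split reads at 5′ junctions were tested per gene with TMM. P-values were adjusted by Benjamini-Hochberg over all features. Long reads were expressed as CPM of each library, with a pseudocount of 0.5 reads in ratios and exact intervals from scipy 1.17.1. The method was tested on simulated data. There split and unsplit reads were both doubled, whereas the unsplit reads here were counted separately at each junction, so the simulation differs from the data in this. DESeq2 1.42.0, limma 3.58.1 and left-out libraries were alternatives.

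Named are all members; their called introns and, per member, the largest fall among introns with at least 50 junction reads in every library; the top transcript, retained-intron or decay models with at least 10 reads, and transcripts at least 2-fold changed; called genes of the wider list; and the 5 genes closest to *Ehmt2*. Further introns and models shown were picked after their values were seen. Members, lists and rules were chosen with earlier results of these data known. Both long-read samples are described with the same knockdown sample as starting material, so how the control long-read library relates to the total RNA replicates is unclear.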

Additional observations from a re-analysis of the deposited data

Results flagged for a closer look

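An *Ehmt2* intron of 90 nt with an alternative 5′ splice site (chr17:35127290-35127379), used by models other than Ehmt2-204, entered no test because it was listed in the 2 knockdown libraries and in neither control. It had 24 unsplit reads over both junctions in knockdown 1 and 19 in knockdown 2. Of these, 11 and 10 lay over the alternative donor, where 0 split reads were counted, while 151 and 150 split reads used its acceptor. Every listed junction had at least 10 reads, so absence from the control tables may mean fewer than 10 at either junction. Which junction fell short, and its level in the controls, is not given.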

How the results depend on the processing

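The number of member introns called (8) was 1 with DESeq2, 0 with limma on log odds (which called 0 introns of any gene, with 15 member introns at an unadjusted p under 0.05), 0 with 5′ and 1 with 3′ junctions alone, and 0 to 11 with 1 library left out. Over all introns, 1112 were called, 285 with DESeq2, 232 and 322 at single junctions, and 155 without control 1. The number of member genes called in efficiency (2) was 1 with DESeq2, with either junction alone, with no read minimum and with well covered introns only, 0 with limma (*Ehmt2* adjusted p = 0.132), and 1 to 2 with 1 library left out. Over all genes, 666 were called, 503 with DESeq2, 0 with limma (2 member genes at an unadjusted p under 0.05), 507 and 481 at 5′ and 3′ junctions alone, 643 with no minimum, 578 with well covered introns and 175 without control 1. The number called in spliced reads (2) was 2 to 4 with 1 library left out, *Atf7ip* and *Trim28* joining without knockdown 1; over all genes it was 826, 290 on the best covered intron alone and 2193 without knockdown 1. The median change over *Wiz* introns was -0.142, and -0.0686 with well covered introns only.

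Gene by gene, replicate numbers showed no pairing: deviations of same-numbered samples correlated at 0.00174 for spliced reads and 0.0351 for log odds. This correlation cannot see a shift shared by all genes. Both libraries numbered 1 were deeper, with 16012286 (control) and 14978479 (knockdown) split reads at 5′ junctions. Those numbered 2 had 10640247 and 10556187. Whether same-numbered samples were handled together is therefore not settled. With the replicate number as a block, 10 member introns (1626 of all introns), 3 member genes in efficiency (1018 of all genes) and 2 in spliced reads (1000) were called; *Setdb1* joined (adjusted p = 0.00819).

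Signs turned only in values that were not called. *Ehmt1* spliced reads were -0.07 on the best covered intron. *Atf7ip* efficiency was -0.08 with separate scaling, -0.13 at 3′ junctions and -0.05 to 0.11 with 1 library left out. *Suv39h1* efficiency was -0.1 with separate scaling, -0.26 at 5′ junctions and -0.1 to 0.13 with 1 library left out; its spliced reads were 0.00 at 3′ junctions and -0.12 to 0.13. *Suv39h2* efficiency was -0.05 at 5′ junctions and -0.06 to 0.53 with 1 library left out, and its spliced reads -0.09 to 0.02. For *Trim28* the left-out ranges were -0.03 to 0.27 in efficiency and -0.26 to 0.03 in spliced reads. The cause of these differences was not tested. Of the other values, 328 kept their side of the threshold, 56 lost a call and 8 gained one. Long-read values rest on as few as 22 reads a gene.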
